A study of Saccharomyces cerevisiae with 4 samples.

Results

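Yeast builds homocysteine, the carbon skeleton of methionine, from aspartate by a chain of enzymes whose genes are described here across 4 deletion strains. Hom3 (aspartokinase) phosphorylates aspartate, Hom2 (aspartate-semialdehyde dehydrogenase) reduces the product, and Hom6 (homoserine dehydrogenase) yields homoserine, from which threonine is also made. Met2 (homoserine O-acetyltransferase) commits homoserine to the sulfur branch by making O-acetylhomoserine. Met17 (O-acetylhomoserine sulfhydrylase, also called Met15 or Met25) joins it to sulfide and gives homocysteine. MET2 and MET17 are textbook members of the sulfur regulon that Met4 activates, a protein that does not bind DNA well alone and is brought to promoters by Cbf1 with Met28 or by the zinc-finger paralogs Met31 and Met32. The HOM genes stand before the threonine branch. HOM2 and HOM3 are usually counted among genes of general amino acid control, the response driven by Gcn4.

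The 5 members were taken by open reading frame (ORF) name, HOM3 (YER052C), HOM2 (YDR158W), HOM6 (YJR139C), MET2 (YNL277W) and MET17 (YLR303W), out of 6260 ORFs in the table. They lie on chromosomes V, IV, X, XIV and XII, so none is a neighbour of another. All 5 were measured on all 4 arrays.

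The strains carry the labels met28, met31, met32 and cbf1 in *Saccharomyces cerevisiae*, each set against wild-type RNA on a 2-colour array. The wild type is labelled plain for met31 and met32 and "wt+met", read here as wild type with methionine, for met28 and cbf1. The labels do not say whether those deletion cultures also had methionine, so a difference of strain and one of medium cannot be told apart there. Cultures from colonies picked on plates with G418 were kept at 30 °C in the defined medium YNB and taken at an OD600 of 0.8 to 1. The parent strain, and whether it carries a MET17 marker deletion as some laboratory strains do, is not given in the sources used here.

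Each strain has 1 column of signed values, taken to be log ratios of unknown base, although at least 2 biological samples of each strain were grown according to the labels. There is therefore no replicate spread, no test and no p-value for any value below, and the precision is limited by the number of arrays. An exact 0 was treated as not measured, which left 5242 ORFs for met28, 5893 for met31, 5882 for met32 and 5383 for cbf1. A percentile below is the percent of the other measured ORFs of the array with a lower value, with ties shared evenly between lower and higher. The tails are the lowest and highest 2.5%. Negative values likely mean less RNA in the deletion strain on 3 of the arrays, because MET28 (-1.294), MET31 (-0.320) and CBF1 (-0.995) each lay in the lowest tail of the array of their own deletion. MET32 was at 0.012 on the met32 array, at percentile 59.6. That value is near 0 with either sign, so it settles neither the direction of this array nor a loss of MET32 RNA. The met32 strain is therefore known here by its label alone. The members' values on that array are also given with the sign turned, and values of other genes there are as deposited unless a turned value follows.

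The sulfur-branch end of the chain was low in the strain labelled cbf1, and the homoserine part was not. MET2 was at -0.348 there and MET17 at -0.248, while HOM6 was at -0.046, HOM2 at -0.062 and HOM3 at 0.128. The median of all measured ORFs on this array was -0.034, so HOM6 and HOM2 lay close to the middle of the array. MET2 was the only one of the 20 member values in a tail, which is near the share of all ORFs in both tails together. Each tail of each array held between 2.51% and 2.58% of the measured ORFs. On the cbf1 array 1 of the 5 members was thus in the lowest tail, beside 2.51% of all measured ORFs, and 0 were in the highest, beside 2.51%. The lowest tail began at -0.291, and 77 ORFs lay between that limit and MET17.

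**Figure D1:**
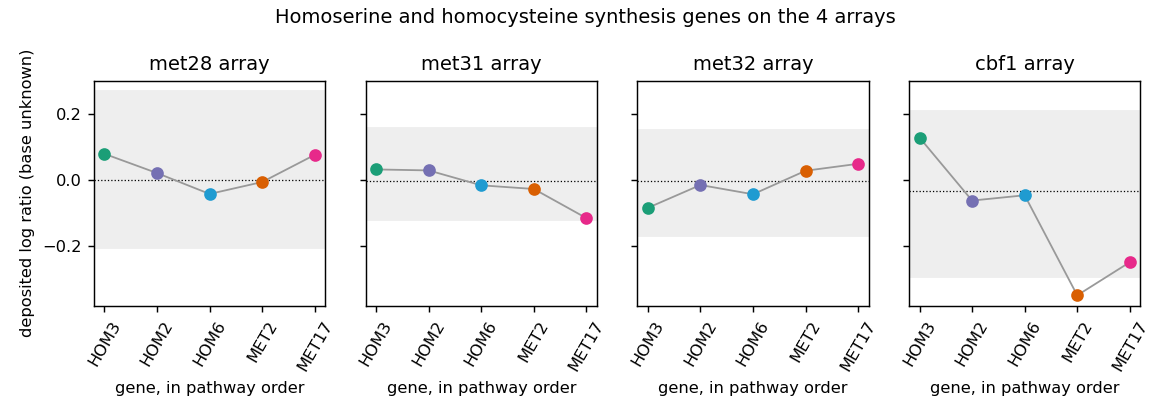
Deposited log ratio (vertical axis, base unknown) of HOM3, HOM2, HOM6, MET2 and MET17 in pathway order on each array, with 1 value per gene and array and grey lines only as a guide. The shaded band lies between the lowest and highest 2.5% of measured ORFs and the dotted line is their median. MET2 on the cbf1 array, at -0.348, is the only point outside the band.

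For MET2, which makes O-acetylhomoserine, the values were -0.006 on met28, -0.027 on met31, 0.028 on met32 (-0.028 with the sign turned) and -0.348 on cbf1. It was low on the cbf1 array alone, at percentile 1.24 with 66 ORFs lower, and lay between percentiles 30.4 and 69.2 on the others. Read as a log10 ratio, the cbf1 value is a level 2.23-fold below the reference, and read as a log2 ratio it is 1.27-fold below. Its values spanned 0.376 over the 4 arrays, against a median span of 0.154 over the 4661 ORFs measured on all of them, which put MET2 at percentile 94.4 of that span. With the met32 sign turned for all ORFs, its span was 0.342, at percentile 91.7. On the log10 reading MET2 was the only member at least 2-fold from the reference, beside 2.21% of measured ORFs at least 2-fold lower on that array.

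For MET17, the sulfhydrylase that uses the product of Met2, the values were 0.076 on met28, -0.115 on met31, 0.049 on met32 (-0.049 turned) and -0.248 on cbf1. It was low on 2 arrays, at percentile 3.99 on cbf1 and 3.06 on met31, and on the higher side on met28, at percentile 81.7. Neither low value reached the tail as defined, whose limit on met31 was -0.122. Over the ORFs measured on all 4 arrays the met31 value did fall in the lowest tail. The cbf1 value is 1.77-fold below the reference if the scale is log10 and 1.19-fold if it is log2, and the met31 value 1.30-fold or 1.08-fold. MET17 and MET2 were therefore both low with the cbf1 label, and of these genes MET17 was the lower on met31.

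For HOM3, the feedback-regulated enzyme at the head of the chain, the values were 0.079 on met28, 0.032 on met31, -0.084 on met32 (0.084 turned) and 0.128 on cbf1. It was the highest member on met28, met31 and cbf1 and the lowest on met32, at percentiles 82.3, 73.4, 92.0 and 11.1. With the met32 sign turned it was the highest member on all 4 arrays. Its span over the arrays depends on that sign. It was 0.212 as deposited, at percentile 71.0 of all ORFs, and 0.096 with met32 turned, at percentile 20. No HOM3 value was in a tail, and the cbf1 value is 1.34-fold above the reference on a log10 reading and 1.09-fold on a log2 reading.

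HOM2 had values of 0.021 on met28, 0.029 on met31, -0.015 on met32 (0.015 turned) and -0.062 on cbf1, between percentiles 39.8 and 71.4. HOM6 had values of -0.042, -0.016, -0.043 (0.043 turned) and -0.046 in the same order, between percentiles 24.9 and 46.0, with the turned met32 value at percentile 75.1. As deposited, HOM6 varied least of the members, with a span of 0.030 at percentile 1.29 of all ORFs, and HOM2 spanned 0.091, at percentile 20.1. With the met32 sign turned the spans of HOM6 and HOM2 were nearly equal, 0.089 and 0.091, at percentiles 16.5 and 17.5. Neither gene was in a tail on any array with either sign.

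The order of the members differed between the arrays. On met28 the order from high to low was HOM3, MET17, HOM2, MET2 and HOM6, over a range of 0.121, with 0 members in the lowest tail (2.54% of all ORFs) and 0 in the highest (2.52%). On met31 it was HOM3, HOM2, HOM6, MET2 and MET17, the same as the order of the reactions, over 0.147, with 0 in either tail beside 2.55% and 2.51%. On met32 it was MET17, MET2, HOM2, HOM6 and HOM3, over 0.133, with 0 in either tail beside 2.52% and 2.58%, and the sign turned would reverse it. On cbf1 the range was 0.476, and the widest gap between neighbouring reactions was that from HOM6 to MET2, 0.302. Values of all ORFs were also more spread on cbf1, so these ranges are not on a like scale. The robust SD was 0.11 there, and 0.0778, 0.0519 and 0.0608 on met28, met31 and met32. Without replicates it cannot be said which neighbours in these orders differ beyond their spread, and differences such as the 0.003 between HOM3 and HOM2 on met31 are small beside the robust SD of 0.0519 among the ORFs of that array.

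**Figure D2:**
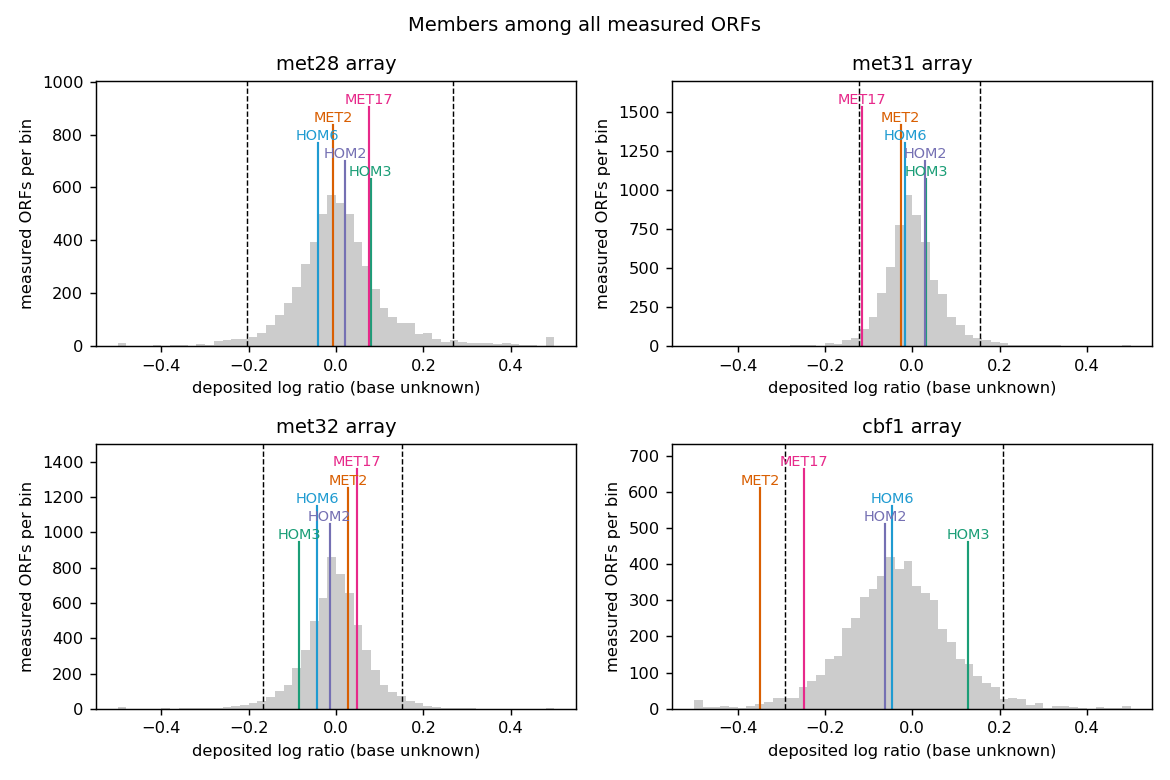
Histograms of the deposited log ratios (horizontal axis, base unknown) of all measured ORFs in bins of 0.02, with values beyond 0.5 on either side counted in the end bins, and coloured lines at the 5 members. Dashed lines mark the lowest and highest 2.5%. The members sit in the bulk on met28 and met32, MET17 is beside the lower limit on met31, and MET2 and MET17 stand on the low side on cbf1.

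The median over the 5 members was 0.021 on met28, -0.016 on met31, -0.015 on met32 and -0.062 on cbf1. The medians over all measured ORFs were 0.0015, -0.002, -0.002 and -0.034. The members' median was therefore near that of all ORFs on each array, and on cbf1 it did not show the gap between the mean of MET2 and MET17, -0.298, and the median of the 3 HOM genes, -0.046.

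The met28 and cbf1 arrays carry the same reference label, and the met28 value minus the cbf1 value was taken for the 5032 ORFs measured on both. The difference was 0.342 for MET2 and 0.324 for MET17, at percentiles 96.8 and 96.1, and its median over all these ORFs was 0.038. It was 0.083 for HOM2, 0.004 for HOM6 and -0.049 for HOM3. MET2 and MET17 were thus both higher on met28 than on cbf1, yet 0 of the 5 members reached the highest tail of this difference, which began at 0.369 and held 2.52% of ORFs, and 0 reached the lowest, which held 2.54%.

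**Figure D3:**
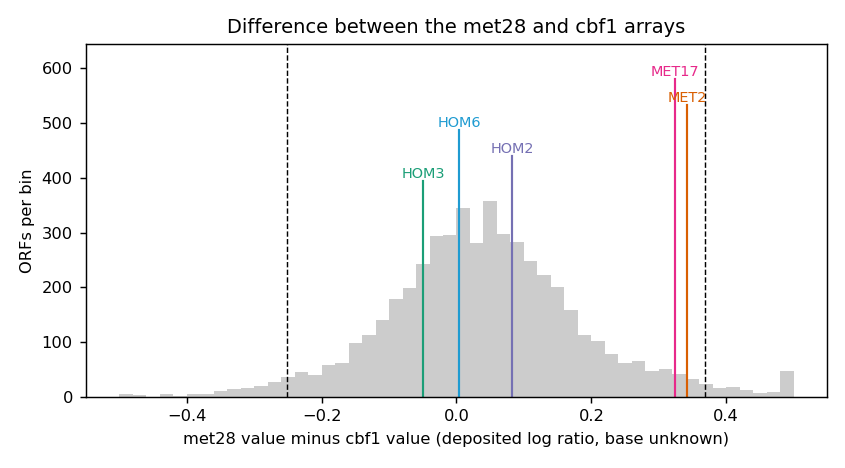
Histogram of the met28 value minus the cbf1 value (horizontal axis, deposited log ratio units of unknown base) for the 5032 ORFs measured on both arrays, in bins of 0.02 with the end bins holding values beyond 0.5. Dashed lines mark the lowest and highest 2.5%, and MET2 (0.342) and MET17 (0.324) lie just inside the upper one.

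The genes of sulfide supply for Met17 gave other values on the met28 array than the 5 members. Of 9 measured genes of sulfate uptake, activation, reduction and siroheme synthesis, 7 were in the lowest tail on met28, with a median of -0.362. Of 10 measured on cbf1, 7 were in the lowest tail, with a median of -0.514. That tail held 2.54% of all measured ORFs on met28 and 2.51% on cbf1. MET5 and MET10, which encode the subunits of the sulfite reductase that releases sulfide, were at -0.411 and -0.308 on met28 and at -0.607 and -0.422 on cbf1. The others in the lowest tail on both arrays were the sulfate permease genes SUL1 and SUL2, and MET16, MET22 and MET1, between -0.801 and -0.313 except SUL1 on cbf1 at -1.119. Outside the tails on met28 were MET3 at -0.188 and MET8 at -0.119. Outside them on cbf1 were MET8 at -0.162, and MET3 and MET14 above 0, at 0.041 and 0.193. On met28, then, both subunit genes were in the lowest tail and MET17 was at 0.076 and MET2 at -0.006. On cbf1 all 4 genes were below -0.2. On met31 the subunit genes were at -0.059 and 0.041, and MET17 at -0.115 was below both. MET10 was at 0.180 on met32 (-0.180 turned), the only gene of this list in a tail there.

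MET17 belongs to a family of pyridoxal phosphate enzymes whose other members mostly did not share its sign on cbf1. Of all ORFs measured there, 62.9% were below 0 and 2.51% were in the highest tail. Of its 7 relatives measured there, 6 were above 0 and 3 were in the highest tail. These were STR3 (cystathionine beta-lyase) at 0.790, IRC7 at 0.334 and STR2 (cystathionine gamma-synthase, which also uses O-acetylhomoserine) at 0.213. The list's median was 0.114, and only YLL058W, at -0.139, was below 0 like MET17. On met28 the highest and lowest tails held STR3 at 0.857 and YHR112C at -0.205, and YLL058W and CYS3 (cystathionine gamma-lyase) were at 0.238 and 0.226, outside the tails. YLL058W was thus, like MET17, above 0 on met28 and below 0 on cbf1. On met31 STR3 was at -0.185, in the lowest tail, where MET17 was at -0.115. On met32 it was at 0.164 (-0.164 turned), in the highest tail as deposited, where MET17 was at 0.049.

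The genes of the methyl cycle and of the first transsulfuration step, only some of whose enzymes use homocysteine, held 1 gene in a tail. It was MHT1, whose enzyme methylates homocysteine with S-methylmethionine. Of the 10 genes measured on each array, MHT1 was the only one in a tail, at 0.595 on met28 and at 0.460 on cbf1. The highest tails of these arrays held 2.52% and 2.51% of all measured ORFs. The list's medians were 0.0445, 0.008, -0.012 and 0.042 on met28, met31, met32 and cbf1. MET6, which encodes the methionine synthase, was at 0.053, -0.015, -0.016 and 0.061. CYS4, which encodes the enzyme that draws homocysteine into transsulfuration, was at 0.016, -0.047, 0.065 and -0.073.

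The branches beside the chain also lay mostly in the bulk, as most ORFs do. Of all measured ORFs, between 2.51% and 2.58% were in each tail of an array. A count of 0 in lists this short is near those shares. In the threonine and isoleucine branch, 1 of 4 genes was in a tail on cbf1, GLY1 (threonine aldolase) at 0.264, and THR1 (homoserine kinase, which competes with Met2 for homoserine) was at -0.113. THR1 was at -0.012, -0.028 and -0.064 on met28, met31 and met32. Of 7 genes of aspartate supply and use, among them FPR1, whose product binds aspartokinase, 0 were in a tail on any array, and the farthest from 0 was PYC2, a pyruvate carboxylase gene, at -0.200 on cbf1. Of the general amino acid control genes outside the pathway, 9, 9, 10 and 9 were measured on met28, met31, met32 and cbf1 and 0 were in a tail. Their cbf1 values ran from -0.085 to 0.066, so MET2 and MET17 lay below this range, HOM3 lay above it and HOM2 and HOM6 lay inside it. GCN4 was at -0.047, -0.005, -0.002 and 0.005. Among the sulfur regulators, MET31 on met28 (0.598), MET28 on cbf1 (0.244) and CBF1 on met32 (0.154, or -0.154 turned) were in the highest tail as deposited.

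**Figure D4:**
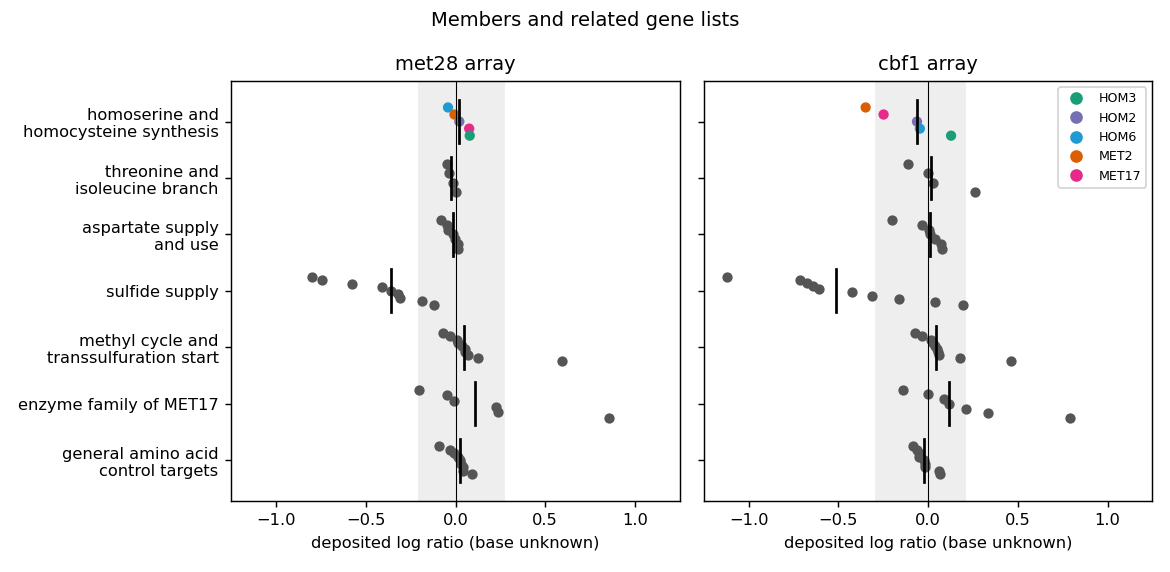
Deposited log ratios (horizontal axis, base unknown) of the measured genes of each list on the met28 and cbf1 arrays, 1 point per gene spread vertically for visibility, with a black bar at the list's median and the 5 members in colour. Shading marks values between the lowest and highest 2.5%. The sulfide supply list has a median of -0.362 on met28 and -0.514 on cbf1, and among the members MET2 alone is outside the shading, on cbf1.

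The ORFs most like each member over the 4 arrays were found by Euclidean distance after each array was divided by its robust SD, over 4661 ORFs. The 3 nearest named genes to MET2 were TRM9, TFC6 and TAH18, at distances of 0.413, 0.578 and 0.781 robust SDs. TRM9, for example, was at 0.010, -0.030, 0.036 and -0.312. Those nearest to MET17 were SAY1, MAN2 and SPC24, at 0.601 to 0.796. HOM3 was nearest to SAC7, PML1 and DIN7, HOM2 to RPP1A, VOA1 and SRB7, and HOM6 to TAF8, APL5 and MDR1, at 0.151 to 0.631. No gene of the lists above was among these 15. Those lists hold few of the 4661 ORFs, so this absence is what their small share would give. The distances do not depend on the met32 sign. Without the met32 array, 5 of the 15 were again among the nearest 3, and MET32 of the regulators was the second nearest to HOM2, at 0.0546. Both genes lay in the bulk of those arrays, between percentiles 38.3 and 71.4, and RRP4 was nearer to HOM2, at 0.0232. Whether HOM2 and MET32 respond alike was not tested.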

How the data were processed

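RNA of 4 deletion strains and wild type was compared on 2-colour arrays, labelled with Cy3 or Cy5 during first-strand cDNA synthesis per the labels. The authors deposited 1 signed value per ORF and strain with at most 3 decimals. The sources used here do not give the log base, centring, background correction, dye orientation or how biological samples were combined, so values are printed as deposited. The array medians as deposited were 0 on met28, met31 and met32 and -0.013 on cbf1. Channel intensities were not analysed here.

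An exact 0 (1018, 367, 378 and 877 ORFs on met28, met31, met32 and cbf1) was treated as not measured. Ranks and tails were computed over all measured ORFs of an array. Symbols came from a RefSeq gene table (assembly R64), used for names and for neighbours, in which 5774 of the 6260 ORFs were found. Named genes are the members, the regulators, list genes in a tail or among the 4 largest values of a list, the members' chromosomal neighbours and the 3 nearest named genes. MET3, MET8 and MET14 were named besides, so that every measured gene of sulfide supply is given for met28 and cbf1. Members and the 7 other lists were chosen with earlier results of these data known. No sequences were used. The code for tails and distances was checked on shuffled values of these arrays with planted extremes and planted near copies. That for percentiles was checked on a small example. Alternatives were other tail limits, 2-fold limits, centring, zeros as values, ORFs measured on all 4 arrays, medians without MET17, means, scaled differences and the met32 sign turned. Python 3.11.15, pandas 2.3.3, numpy 2.4.6 and matplotlib 3.10.9 were used.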

Additional observations from a re-analysis of the deposited data

How the results depend on the processing

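Of the tail counts, those of met28 and met32 were 0 under every alternative run. The cbf1 count was 1 with zeros counted as values, over ORFs measured on all 4 arrays and by 2-fold on a log10 scale, 2 with tails of 5%, and 0 with tails of 1% or by 2-fold on a log2 scale. The met31 count was 1 with tails of 5% or over ORFs measured on all 4 arrays, and 0 otherwise. The added gene in each case was MET17. After centring, the members' medians on met28, met31, met32 and cbf1 were 0.0195, -0.014, -0.013 and -0.028. Without MET17 they were 0.0075, 0.0065, -0.029 and -0.054, so the met31 median changed sign. Means in place of medians were 0.0256, -0.0194, -0.013 and -0.115, and the met32 median was 0.015 with the sign turned. The count in the tails of the met28 minus cbf1 difference was 0 after scaling as well, and 5 of the 15 nearest genes were found again without met32. Centring moved the cbf1 values of MET2 and MET17 to -0.314 and -0.214. The members' spans with the met32 sign turned, an alternative chosen after seeing the data, moved for HOM3, HOM6 and MET2 and are given with each gene. The causes of these changes were not tested. No paired analysis was possible because each strain has 1 column, which also leaves no replicate to omit, and with no intensities the signal over background of the members is unknown.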

Other observations

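The genes on either side of each member in chromosomal order, chosen as the nearest ones with a value in the table, mostly did not share the members' extremes. On the cbf1 array the neighbours of MET2 were at 0.011 (CAF120) and -0.168 (BOR1, YNL275W), and those of MET17 at 0.170 (YLR302C) and -0.039 (ACO1, the aconitase gene). Of the 10 neighbours, 2 were in a tail, each on a single array. Each neighbour was looked up in both tails of every array on which it was measured. The count of 2 genes therefore cannot be set beside the share of a single tail, between 2.51% and 2.58% of all measured ORFs. Over all measured values of the 10 neighbours, 2 in a tail is near the share of both tails together. No test was made of this. YLR302C was at 0.417 on met28, in the highest 2.5%, where MET17 was at 0.076. PIC2, beside HOM3, was at -0.188 on met32 as deposited, in the lowest 2.5%, where HOM3 was at -0.084. With the met32 sign turned these values are 0.188 and 0.084, and PIC2 would be in the highest tail. YLR302C was listed at 0 on met31. HOM6 is separated from the sulfite reductase gene MET5 by IML1 alone. On met28 and cbf1, MET5 was at -0.411 and -0.607, IML1 at 0.112 and 0.042 and HOM6 at -0.042 and -0.046.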
